A study of Mus musculus with 6 samples.

Results

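The 10 genes described here encode transcription factors and inhibitors of transcription factors that steer blood progenitors into the myeloid lineages: Spi1, Cebpa, Cebpb, Cebpd, Cebpe, Gfi1, Irf8, Myb, Id1 and Id2. They were chosen by gene symbol and stand for 10 of the 55487 genes in the deposited table, each with 1 row. The RNA was from murine bone marrow LSK cells, which lack lineage markers, carry Sca-1 and Kit, and include blood stem cells with their multipotent descendants. Of the libraries, 3 were from Mc5r-/- mice, mutant in the melanocortin 5 receptor gene, and 3 from wild-type littermates. The series describes all of these mice as irradiated, and no unirradiated library was analysed. The dose, the time after irradiation, the age and sex of the mice, the kind of mutant allele and the number of mice behind a library are not given in the sources used here. The p-values and SDs below thus reflect how far these 6 libraries scatter, and that scatter may be technical.

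Lineage choice in blood progenitors is set by a small group of DNA-binding proteins that act in combination and in different doses. PU.1, encoded by Spi1, is an ETS family factor needed for all myeloid cells, and C/EBP alpha, encoded by Cebpa, is needed for the step to the granulocyte and monocyte progenitor. Downstream, Gfi1 and C/EBP epsilon favour granulocytes while Irf8 favours monocytes and dendritic cells. Myb maintains progenitors and activates early granule genes, and the Id proteins bind E proteins and keep them off DNA. The melanocortin 5 receptor couples to Gs and raises cAMP.

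Each library held 13983016 to 14953169 gene counts. Mc5r itself had 0, 0 and 1 counts in the Mc5r-/- libraries and 181, 157 and 198 counts in the wild-type libraries, so the libraries follow their genotype labels. The LSK label was checked on the genes of the sort. Kit averaged 256 ± 5.21 CPM (counts scaled to a common library total) in Mc5r-/- and 241 ± 2.95 CPM in wild type, and Ly6a, which encodes Sca-1, averaged 66.6 ± 9.54 CPM in Mc5r-/- and 59.3 ± 10.6 CPM in wild type (SD, n = 3 each). Immunoglobulin genes took 6.87% to 6.96% of the counts in Mc5r-/- libraries and 2.14% to 2.15% in wild-type libraries, although plasma cells lie outside an LSK gate. A fit without these genes called the same number of the 10 factors lower, 7.

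The promoters of Cebpa and Cebpb are shown because these paralogues, which recognise the same DNA, differed in how they stood between the genotypes. The promoter of Gfi1 is shown because it holds the only match to the C/EBP motif among the 6 windows scanned. RefSeq windows of 300 bases (250 before the start site and 50 from it on, build GRCm38.p6) were found for Cebpa, Cebpb, Gfi1, Irf8, Myb and Id2 and not for Spi1, Cebpd, Cebpe and Id1. Gfi1 and Irf8 had 2 windows each, and only the window nearest the gene start in the deposited table was scanned. Capitals mark matches on either strand to the PU.1 motif GAGGAAG, the C/EBP motif TTGCNNAA, the cAMP response motif TGACG, the E-box CAGCTG, the Gfi1 core AAATC, the Myb motif AACGG and the TATA box TATAAA. The windows lie at chr7:35119043-35119342 on the plus strand for Cebpa, at chr2:167688665-167688964 on the plus strand for Cebpb and at chr5:107725756-107726055 on the minus strand for Gfi1.
Cebpa: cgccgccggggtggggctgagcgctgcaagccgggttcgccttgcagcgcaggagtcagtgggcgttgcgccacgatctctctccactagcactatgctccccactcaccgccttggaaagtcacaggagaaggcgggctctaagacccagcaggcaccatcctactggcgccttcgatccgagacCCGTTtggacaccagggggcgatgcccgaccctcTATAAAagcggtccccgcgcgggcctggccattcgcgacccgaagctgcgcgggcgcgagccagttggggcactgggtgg
Cebpb: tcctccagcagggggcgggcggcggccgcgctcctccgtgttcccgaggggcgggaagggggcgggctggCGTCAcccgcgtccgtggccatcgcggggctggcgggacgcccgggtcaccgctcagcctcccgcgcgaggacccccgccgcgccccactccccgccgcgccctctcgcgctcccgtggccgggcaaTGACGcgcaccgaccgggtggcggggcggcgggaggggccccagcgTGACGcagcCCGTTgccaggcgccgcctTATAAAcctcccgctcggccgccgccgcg
Gfi1: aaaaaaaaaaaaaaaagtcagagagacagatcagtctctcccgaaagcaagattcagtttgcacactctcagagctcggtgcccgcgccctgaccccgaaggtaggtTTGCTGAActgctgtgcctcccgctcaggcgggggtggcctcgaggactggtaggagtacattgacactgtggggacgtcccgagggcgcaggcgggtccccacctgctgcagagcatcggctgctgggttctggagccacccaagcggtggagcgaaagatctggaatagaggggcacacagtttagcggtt

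Counted from the start site as base 0, the Cebpa window holds a TATA box at -30 to -25 and a Myb match at -64 to -60, and no cAMP motif. The Cebpb window holds 3 cAMP motifs, at -180 to -176, -53 to -49 and -7 to -3, and, like that of Cebpa, a Myb match (2 to 6) and a TATA box match (21 to 26). Of 32817 windows of the same length, 20.8% hold at least 1 cAMP motif and 1.03% hold 3 or more. The cutoff of 3 equals the Cebpb count, several motifs were scanned in 6 windows, and the windows were not matched for base content. The Gfi1 window holds 1 C/EBP match at -143 to -136, as do 10.8% of all windows with at least 1, and its start site lies 231 bases inside the start of the gene in the deposited table. The PU.1 motif was in none of the 6 windows, against 13.6% of all windows. The Id2 start site lies 1048 bases inside its gene in the table. Of the other windows, that of Irf8 holds 2 Gfi1 core matches and that of Myb 1, and 35.8% of all windows hold at least 1. A Myb match was found in 17.4%, an E-box in 16.3% and a TATA box in 13.6% of all windows. These matches describe the letters only.

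Most of the factors were modestly lower in Mc5r-/- LSK cells. Of the 10, 7 fell, none rose and 3 did not pass (edgeR quasi-likelihood test, Benjamini-Hochberg adjusted p under 0.05 over all genes). At an unadjusted p under 0.05, 1 was higher, and DESeq2 and limma-voom also called 7 lower and 0 higher. Among all 15257 genes tested, 32.9% were called, 16.1% lower and 16.8% higher. The CPM ranges of the genotypes did not overlap, with Mc5r-/- below, for the 7 factors that fell, and for 28.7% of all genes tested. The median log2 fold change of the 10 was -0.27, against -0.0047 for all genes tested. The falls were small, with 2 of the 10 lower by more than 1.5-fold and 0 by more than 2-fold. Fewer cells of a type and less RNA per cell cannot be told apart in these pooled cells.

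**Figure D1:**
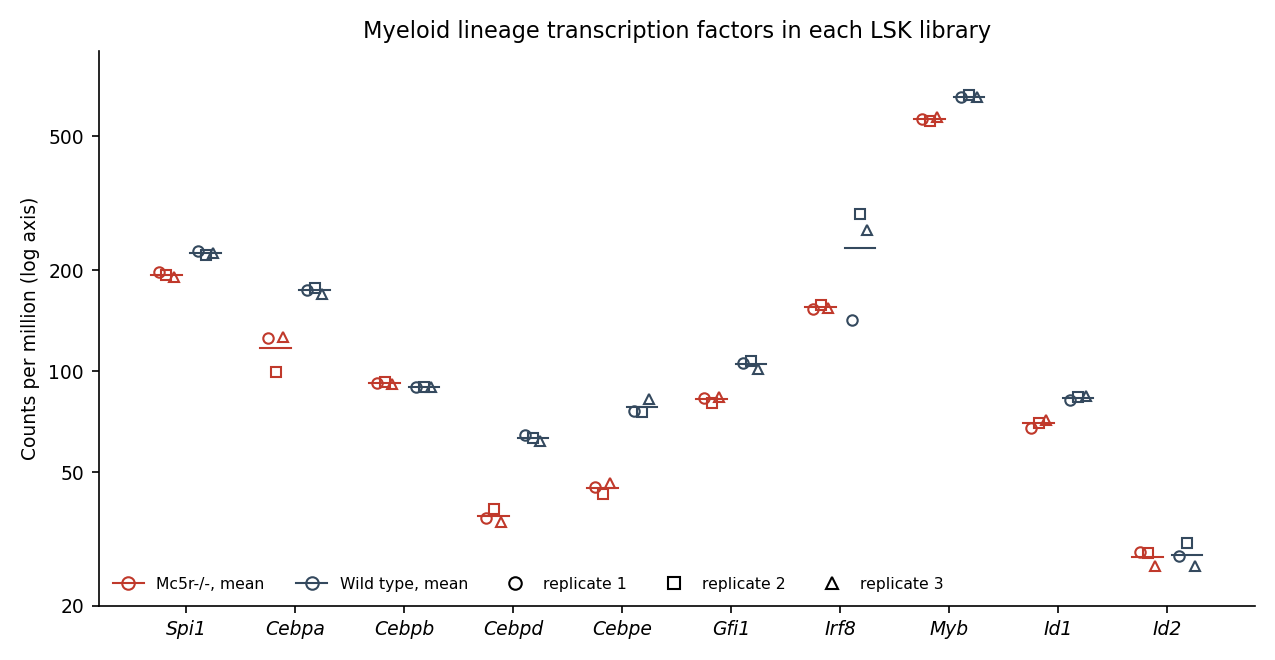
CPM of the 10 factors in every library, on a log axis, with Mc5r-/- left of wild type for each gene and a bar at each mean. All 3 Mc5r-/- points lie below all 3 wild-type points for 7 genes, Irf8 has 1 low wild-type library (142 CPM), and Cebpb and Id2 lie close together in the genotypes.

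Coordinates are those of the deposited table, on GRCm38, and all 10 genes are annotated as protein coding at the same positions in GENCODE. Spi1 (ENSMUSG00000002111, chromosome 2, positions 91082390 to 91115756, plus strand, 4 annotated transcripts) had 197, 194 and 190.2 CPM in Mc5r-/- libraries and 227, 221 and 225 CPM in wild-type libraries. The groups did not overlap, yet by its estimate the fall was the smallest of the 7. Spi1 fell 1.13-fold (log2 fold change -0.18 ± 0.03 SE, edgeR adjusted p = 0.000883).

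Within the C/EBP family the members parted. These proteins share a basic leucine zipper and bind as dimers: C/EBP alpha starts granulocyte and monocyte commitment, C/EBP beta acts in emergency granulopoiesis and macrophages, C/EBP delta is induced in inflammation, and C/EBP epsilon drives the last steps of neutrophil maturation. Cebpa, Cebpd and Cebpe fell, and Cebpb did not pass.

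Cebpe (ENSMUSG00000052435, chromosome 14, positions 54710360 to 54712174, minus strand) had 45.3, 43.1 and 46.3 CPM in Mc5r-/- libraries and 76.2, 75.5 and 82.7 CPM in wild-type libraries. It showed the deepest fall of the 10, 1.70-fold (log2 fold change -0.77 ± 0.05 SE, edgeR adjusted p = 1.05e-05). Cebpd (ENSMUSG00000071637, chromosome 16, positions 15887286 to 15891031, plus strand) had 36.6, 38.9 and 35.4 CPM in Mc5r-/- libraries and 64.3, 63.0 and 61.8 CPM in wild-type libraries. It fell nearly as far, 1.67-fold (log2 fold change -0.74 ± 0.05 SE, edgeR adjusted p = 1.55e-05). Its 3' part overlaps 1808 bases of Spidr on the opposite strand. Spidr had 618, 691 and 656 counts in Mc5r-/- and 648, 679 and 683 counts in wild type, more than Cebpd in Mc5r-/- libraries, and the sources used here do not say whether counting used strand.

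Cebpa (ENSMUSG00000034957, chromosome 7, positions 35119293 to 35121928, plus strand) had 126, 99.5 and 127 CPM in Mc5r-/- libraries and 175, 177 and 170.2 CPM in wild-type libraries. All Mc5r-/- libraries were lower, but replicate 2 of that genotype stood well below the other two, with 1400 counts against 1769 and 1772. Cebpa fell 1.45-fold (log2 fold change -0.53 ± 0.10 SE, edgeR adjusted p = 0.0112). Without Mc5r-/- replicate 2 the fall was smaller and firmer (log2 fold change -0.43 ± 0.03 SE, edgeR adjusted p = 6.68e-05). The antisense gene Gm45091 that overlaps 313 bases at its start had at most 9 counts in a library.

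Cebpb (ENSMUSG00000056501, chromosome 2, positions 167688915 to 167690418, plus strand) had 92.0, 92.8 and 91.5 CPM in Mc5r-/- libraries and 89.6, 89.8 and 89.6 CPM in wild-type libraries. The groups did not overlap and Mc5r-/- was the higher, by a margin that did not pass the adjusted test (log2 fold change 0.07, 95% interval 0.0035 to 0.14, edgeR adjusted p = 0.101). Its wild-type counts were 1340, 1340 and 1336, with a variance 0.00398 times their mean where counting alone gives about 1. Its first 908 bases overlap Tmem189 on the opposite strand, which had 379, 357 and 372 counts in Mc5r-/- and 405, 400 and 383 counts in wild type.

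Ratios of counts within a library, which no scaling touches, showed the same parting. There were 1.37, 1.07 and 1.39 Cebpa counts per Cebpb count in Mc5r-/- libraries and 1.95, 1.97 and 1.90 in wild-type libraries. For Cebpd the counts per Cebpb count were 0.398, 0.419 and 0.387 in Mc5r-/- and 0.718, 0.702 and 0.689 in wild type. Neither ratio overlapped between the genotypes, whereas the ratio of Cebpe to Cebpa did overlap, at 0.360, 0.434 and 0.365 in Mc5r-/- and 0.436, 0.427 and 0.486 in wild type. With 3 against 3 libraries an exact two-sided permutation test cannot go below p = 0.10, so the ratios are given as descriptions.

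Per length, in the authors' deposited FPKM (fragments scaled by gene length and library size), the 4 C/EBP genes summed to 131 ± 3.65 FPKM in Mc5r-/- and 174 ± 2.26 FPKM in wild type (SD, n = 3 each). Cebpb made up 46.9 ± 1.67% of this sum in Mc5r-/- and 34.3 ± 0.455% in wild type. The share of Cebpe was 27.7 ± 0.321% in Mc5r-/- and 36.2 ± 1.36% in wild type, that of Cebpa 18.7 ± 1.99% in Mc5r-/- and 20.9 ± 0.662% in wild type, and that of Cebpd 6.77 ± 0.513% in Mc5r-/- and 8.68 ± 0.272% in wild type. On the lengths used, the pool was smaller in Mc5r-/- cells, with Cebpb its largest part there and Cebpe the largest in wild type. CPM over FPKM gives the length used. In wild type this was longer than the whole gene for Cebpa (174 CPM, 36.3 FPKM) and Cebpd (63.1 CPM, 15.1 FPKM). The FPKM of both were thus low, and which gene held the largest part depends on these lengths.

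**Figure D2:**
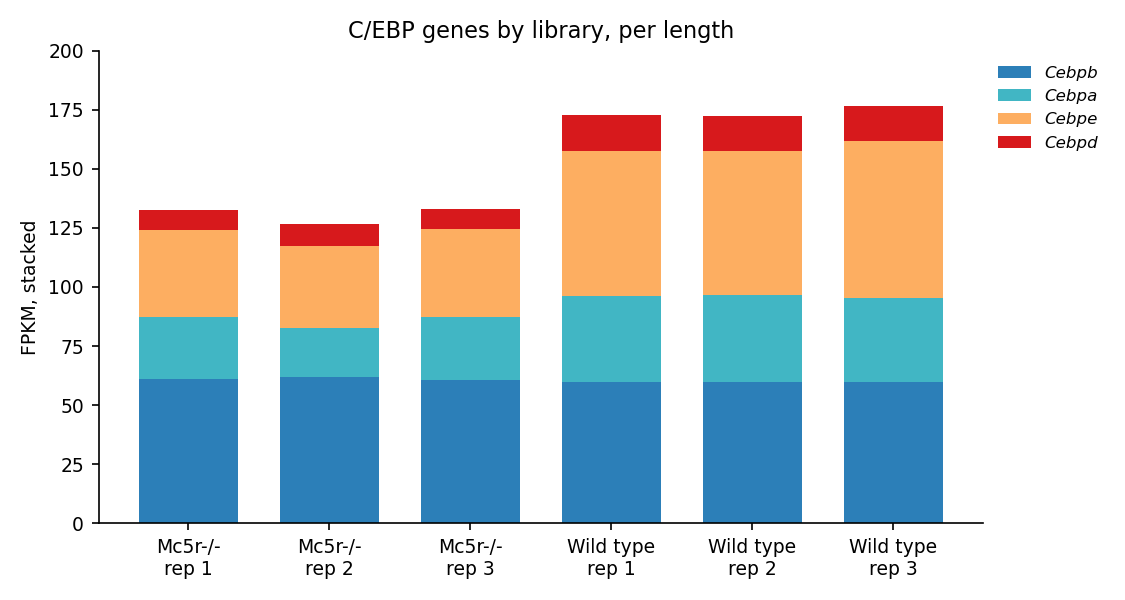
Deposited FPKM of the 4 C/EBP genes stacked for each of the 6 libraries, Mc5r-/- on the left. The Cebpb block is of nearly the same height in all libraries (59.6 to 61.7 FPKM), while the other 3 blocks are shorter in every Mc5r-/- library.

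Gfi1 and Irf8 stand on opposite sides of the choice between granulocytes and monocytes. Gfi1, a zinc finger repressor that silences monocyte genes in granulocyte precursors (ENSMUSG00000029275, chromosome 5, positions 107716657 to 107726036, minus strand, 4 transcripts), had 83.0, 80.1 and 84.0 CPM in Mc5r-/- libraries and 106, 107 and 102 CPM in wild-type libraries. The groups did not overlap, and Gfi1 fell 1.25-fold (log2 fold change -0.32 ± 0.04 SE, edgeR adjusted p = 0.000290). The opposite-strand transcript A430072P03Rik that overlaps 880 of its bases held at most 39 counts in a library, against 1127 to 1604 for Gfi1.

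Irf8, an interferon regulatory factor needed for monocytes and some dendritic cells (ENSMUSG00000041515, chromosome 8, positions 120736358 to 120756694, plus strand, 7 transcripts), had 153, 157 and 155 CPM in Mc5r-/- libraries and 142, 293 and 262 CPM in wild-type libraries. Wild-type replicate 1 lay below all Mc5r-/- libraries and the other two lay well above them, so the groups overlapped. Irf8 did not pass (log2 fold change -0.55, 95% interval -1.38 to 0.28, edgeR adjusted p = 0.253). Leaving out wild-type replicate 1 made the fall pass (log2 fold change -0.81 ± 0.05 SE, edgeR adjusted p = 3.50e-05). Leaving out any other single library did not. The highest wild-type library held 2.06 times the CPM of the lowest, a spread of at least 2 that 1.69% of 10782 well-counted genes showed in wild type.

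Genes linked to PU.1 and Irf8 did not share one order in that library. Ly86, an Irf8-dependent gene of myeloid cells, had 35.7 CPM in wild-type replicate 1, against 32.0 and 32.8 CPM in the other two, and Cst3, a gene of dendritic cells and macrophages, had 245 CPM against 232 and 236 CPM. Tyrobp, an adaptor of myeloid receptors, had 58.0 CPM there and 82.1 and 74.1 CPM in the others, and Itgam had 74.0 CPM there and 109 and 112 CPM in the others. These 4 genes were picked for this comparison after their values were seen, and the cause of the Irf8 spread was not tested. The ratio of Gfi1 to Irf8 counts was 0.543, 0.509 and 0.543 in Mc5r-/- libraries and 0.746, 0.367 and 0.388 in wild-type libraries, so the genotypes overlapped.

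Myb, the factor that keeps progenitors cycling and immature (ENSMUSG00000019982, chromosome 10, positions 21124935 to 21160984, minus strand, 6 transcripts), had the most counts of the 10. It had 563, 555 and 572 CPM in Mc5r-/- libraries and 656, 662 and 654 CPM in wild-type libraries. The groups were tight and well apart, and Myb fell 1.14-fold (log2 fold change -0.19 ± 0.02 SE, edgeR adjusted p = 8.02e-05). Spi1 and Myb fell by a like amount, with 0.350, 0.349 and 0.332 Spi1 counts per Myb count in Mc5r-/- and 0.346, 0.334 and 0.344 in wild type. The antisense transcript Gm26577 within Myb had 3 to 11 counts in a library.

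Of the Id genes, Id1 fell and Id2 did not pass, and the difference between them was not tested. Id1, which is induced by BMP signals and holds back differentiation (ENSMUSG00000042745, chromosome 2, positions 152736251 to 152737410, plus strand), had 67.5, 70.3 and 71.6 CPM in Mc5r-/- libraries and 82.1, 83.7 and 84.1 CPM in wild-type libraries. It fell 1.17-fold (log2 fold change -0.22 ± 0.04 SE, edgeR adjusted p = 0.00208). Id2, which antagonises E proteins in lymphoid and dendritic development (ENSMUSG00000020644, chromosome 12, positions 25093799 to 25097140, minus strand), had 29.0, 28.6 and 26.2 CPM in Mc5r-/- libraries and 28.2, 30.7 and 26.2 CPM in wild-type libraries. The groups overlapped almost fully and Id2 did not pass (log2 fold change 0.01, 95% interval -0.17 to 0.19, edgeR adjusted p = 0.936), with a sign that turned under total count scaling (-0.023). The interval leaves room for a fall or rise of Id2 nearly as large as the fall of Id1, and the ratio of Id1 to Id2 counts overlapped, at 2.33, 2.45 and 2.73 in Mc5r-/- and 2.92, 2.72 and 3.20 in wild type.

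**Figure D3:**
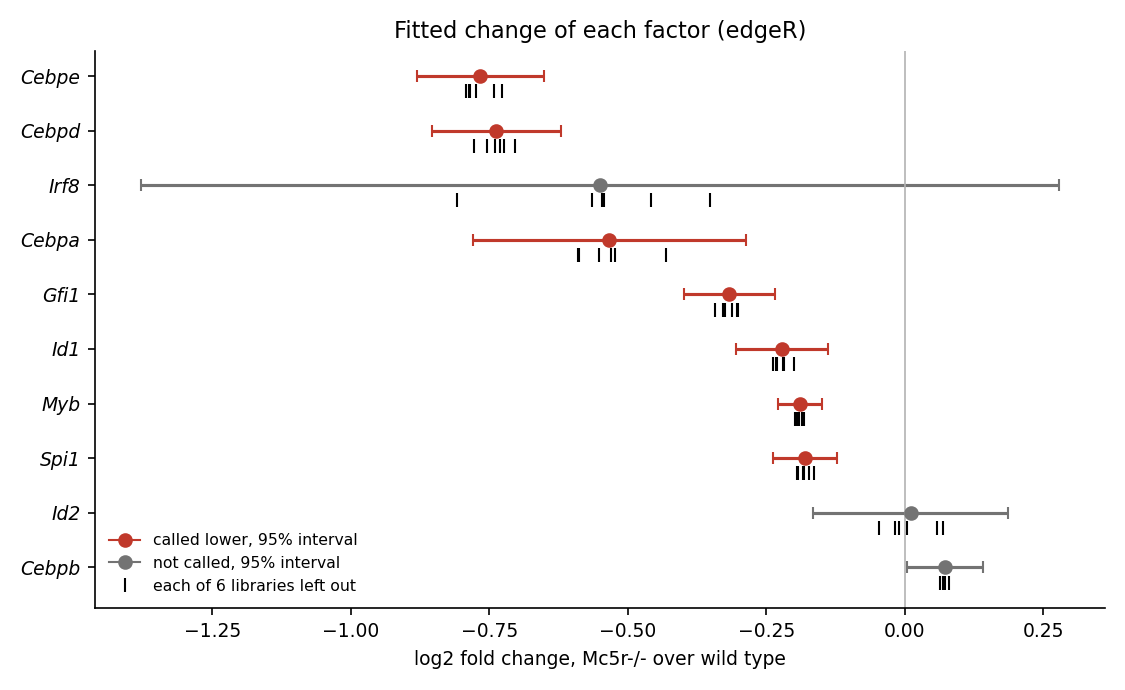
Fitted log2 fold change (Mc5r-/- over wild type) of the 10 factors with 95% intervals, the factors that passed in red, and ticks for the value with each of the 6 libraries left out. The 7 red intervals lie wholly below 0, and the Irf8 ticks run from -0.81 to -0.35.

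By the deposited FPKM, the order of the levels shifted at the top. In Mc5r-/- libraries Cebpb led with 60.8 to 61.7 FPKM, followed by Spi1 at 57.5 to 59.6, Myb at 49.0 to 50.6 and Cebpe at 34.7 to 37.3 FPKM. In wild type Spi1 led with 67.0 to 68.7 FPKM, followed by Cebpe at 60.8 to 66.7, Cebpb at 59.58 to 59.68 and Myb at 57.9 to 58.6 FPKM. From there down the order was the same in both genotypes: Id1, Cebpa, Irf8, Gfi1, Cebpd and Id2, the last at 6.33 to 7.01 FPKM in Mc5r-/- and 6.35 to 7.44 FPKM in wild type. Neighbours in these orders did not overlap, except Irf8 and Gfi1, whose ranges overlapped in both genotypes. The lengths behind the FPKM are the authors'. For Id1 (83.3 CPM and 39.8 FPKM in wild type), Id2, Cebpa and Cebpd, they were longer than the whole gene. The FPKM of these genes were thus low, and the order across genes holds only for the deposited FPKM. The other genes, Myb and Irf8 among them, were not checked against transcript lengths, so their FPKM may be low too.

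Close relatives of the factors showed no common direction. Of 16 such genes 15 were tested, with 4 higher, 3 lower and a median log2 fold change of 0.04. Over all genes tested, 16.8% were higher and 16.1% lower. Irf4, which acts in B and plasma cells and monocytes, rose 2.37-fold to 41.9 ± 1.25 CPM in Mc5r-/-, against 18.1 ± 1.20 CPM in wild type (SD, n = 3 each). Id3, an Id gene that overlaps with Id1 in role, rose 1.37-fold to 44.0 ± 1.02 CPM in Mc5r-/-, against 33.0 ± 0.635 CPM in wild type (edgeR adjusted p = 0.000223), opposite to Id1. There were 1.49, 1.61 and 1.66 Id1 counts per Id3 count in Mc5r-/- libraries and 2.51, 2.49 and 2.59 in wild-type libraries, a ratio looked at after both values were seen. Irf2, an antagonist of Irf1, rose 1.21-fold and the C/EBP dimer partner Cebpg, named after its value was seen, 1.15-fold. Spib, a relative of PU.1 in B cells and plasmacytoid dendritic cells, fell 2.14-fold, the stress-induced C/EBP relative Ddit3 1.35-fold, and the cell cycle factor Mybl2, also named after its value was seen, 1.20-fold. Irf1 (61.5 ± 3.00 CPM in Mc5r-/- and 66.9 ± 6.19 CPM in wild type) and Irf9 (41.6 ± 7.75 CPM in Mc5r-/- and 55.4 ± 11.8 CPM in wild type) did not pass (SD, n = 3 each; edgeR adjusted p = 0.374 and 0.275). Spic had too few counts to be tested.

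Factors that work with the 10 on shared genes were likewise split. Of 22 such genes 21 were tested, with 5 higher, 6 lower and a median log2 fold change of 0.04. Over all genes tested, 16.8% were higher and 16.1% lower. The monocyte factor Klf4 fell 1.52-fold to 322 ± 1.95 CPM in Mc5r-/-, against 501 ± 8.28 CPM in wild type (SD, n = 3 each). Jun, an AP-1 subunit that binds PU.1, and Egr1 both fell 1.19-fold, while the ETS repressor Etv6 rose 1.18-fold and Nab2, a corepressor of Egr proteins, rose 1.53-fold. The other genes called, named after their values were seen, were Rara, Crebbp and Kdm1a, which rose 1.29-fold, 1.16-fold and 1.12-fold, and Zeb2, Fli1 and Cbfb, which fell 1.57-fold, 1.09-fold and 1.08-fold. Lmo2 and the E protein gene Tcf3, the target of Id proteins, did not pass (edgeR adjusted p = 0.618 and 0.0890), with 170 ± 1.40 Tcf3 CPM in Mc5r-/- and 166 ± 2.60 CPM in wild type (SD, n = 3 each). Egr2 was not tested, with no count in Mc5r-/- libraries and 0, 1 and 1 counts in wild-type libraries.

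Genes that the factors are known to activate were mostly lower, on lists chosen with earlier results of these data known. Among all genes tested, 16.1% were called lower and 16.8% higher. Of 11 granulocyte genes activated by C/EBP factors or Myb, 9 fell and none rose, with a median log2 fold change of -0.65 (edgeR; none higher at an unadjusted p under 0.05, and 0 higher with DESeq2 and limma-voom). The cathelicidin gene Camp, a target of C/EBP epsilon, fell 1.93-fold to 136 ± 1.59 CPM in Mc5r-/-, against 269 ± 4.75 CPM in wild type (SD, n = 3 each). The granule genes Prtn3 (1.58-fold), Ctsg (1.57-fold) and Ngp (1.46-fold) fell as well. The early granulocyte gene Ms4a3 fell to 260.1 ± 4.13 CPM in Mc5r-/-, against 478 ± 27.3 CPM in wild type (SD, n = 3 each). Csf3r, the G-CSF receptor gene and a target of C/EBP alpha, had 220.4 ± 7.51 CPM in Mc5r-/- and 222 ± 4.19 CPM in wild type, and Lcn2 had 231 ± 19.7 CPM in Mc5r-/- and 298 ± 32.8 CPM in wild type (SD, n = 3 each). Csf3r (edgeR adjusted p = 0.652) and Lcn2 (edgeR adjusted p = 0.0722) did not pass.

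Monocyte and dendritic genes linked to PU.1 and Irf8 were mostly lower too, on a list chosen in the same way. The shares over all genes tested were 16.1% lower and 16.8% higher. Of 13 such genes, 10 fell and none rose, with a median log2 fold change of -0.51 (edgeR; 1 higher at an unadjusted p under 0.05, and 0 higher with DESeq2 and limma-voom). Ly86 fell 2.54-fold to 12.9 ± 0.525 CPM in Mc5r-/-, against 33.5 ± 1.94 CPM in wild type. Csf1r, the M-CSF receptor gene and a PU.1 target, fell 1.76-fold to 60.5 ± 2.62 CPM in Mc5r-/-, against 109 ± 3.72 CPM in wild type (SD, n = 3 each). The chemokine receptor gene Cx3cr1 fell 2.07-fold and the oxidase genes Cybb and Ncf1 1.46-fold and 1.29-fold. Csf2rb (113 ± 6.21 CPM in Mc5r-/- and 114 ± 22.5 CPM in wild type) and the integrin gene Itgam (96.8 ± 19.3 CPM in Mc5r-/- and 98.3 ± 21.1 CPM in wild type) did not pass (SD, n = 3 each; edgeR adjusted p = 0.964 and 0.977).

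Genes of the signals that act on the Id and inducible C/EBP genes were called about as often as all genes tested, but every call was a rise. Of all genes tested, 32.9% were called and 16.8% rose. Of 15 genes of BMP, STAT3, glucocorticoid and cAMP signalling, 5 rose and none fell by edgeR, with a median log2 fold change of 0.23. At an unadjusted p under 0.05, 9 were higher and none lower, and DESeq2 and limma-voom called 0 lower. Pde4b, a cAMP-degrading phosphodiesterase gene, rose 1.32-fold to 225 ± 3.36 CPM in Mc5r-/-, against 174 ± 1.5 CPM in wild type (SD, n = 3 each). Stat3 rose 1.18-fold, the clock gene Per1, which responds to glucocorticoids and cAMP, 1.38-fold, and the BMP pathway genes Bmpr2 and Smad1 1.26-fold and 1.20-fold. Without wild-type replicate 1, 3 of these genes were called. Socs3 (315 ± 2.99 CPM in Mc5r-/- and 309 ± 7.49 CPM in wild type) and the glucocorticoid target Tsc22d3 (290.5 ± 6.16 CPM in Mc5r-/- and 301 ± 2.36 CPM in wild type) did not pass (SD, n = 3 each; edgeR adjusted p = 0.0889 and 0.581).

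**Figure D4:**
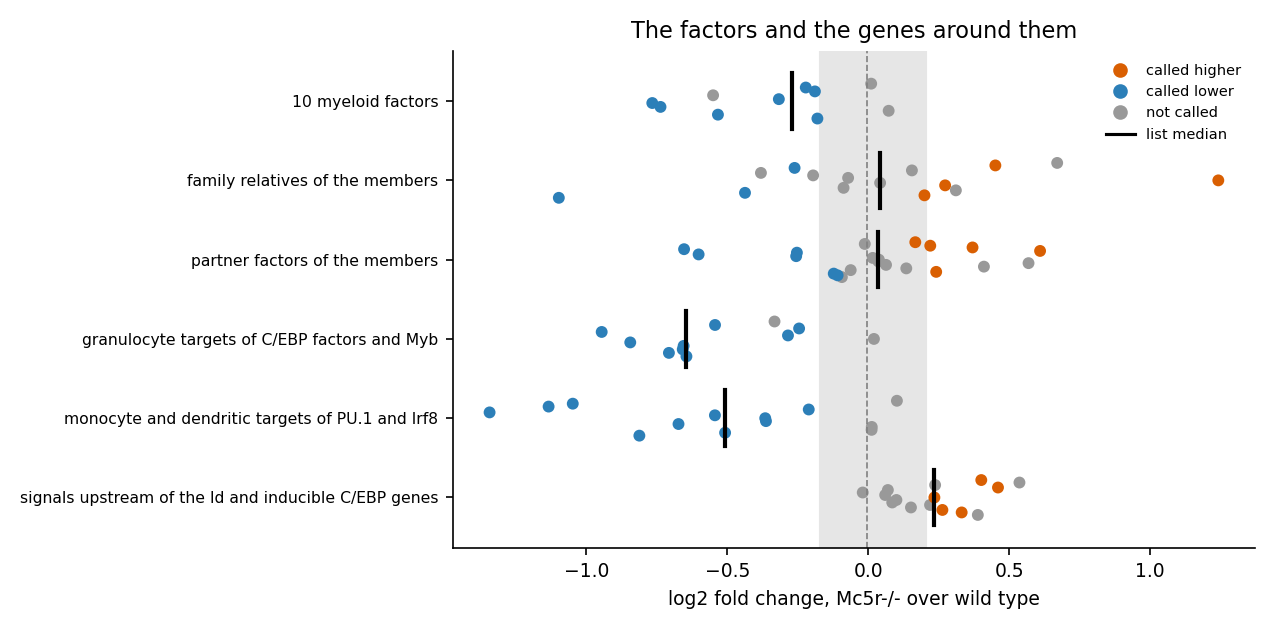
Fitted log2 fold change (Mc5r-/- over wild type) of the tested genes of the 10 factors and of 5 lists around them, with a bar at each list median, a dashed line at the median of all 15257 genes tested and shading between their quartiles (-0.17 to 0.20). The factors and both target lists lie mostly left of the shading, relatives and partners on both sides, and the upstream signals within or right of it.

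Markers of other cells moved in the same libraries, and their part in the levels of the 10 factors was not tested. The counts of markers called stand beside 16.1% of all genes tested called lower and 16.8% higher. Summed over the list, 7 basophil and mast cell markers came to 167 to 175 CPM in Mc5r-/- and 421 to 428 CPM in wild type, and 6 fell, with Prss34 and Hdc the highest. The list of 8 mature neutrophil markers was led by S100a9 and S100a8. Its sums were 1437 to 1513 CPM in Mc5r-/- and 1901 to 2118 CPM in wild type. Of these markers, 3 were lower and 3 higher, with a median log2 fold change of 0.06. S100a9 and S100a8 fell, and Mmp8, Mmp9 and Retnlg, named after their values were seen, rose. The list of 8 monocyte and macrophage markers was led by Ly6c2 and Cd14. Its sums were 317 to 364 CPM in Mc5r-/- and 446 to 533 CPM in wild type. Of these markers, 5 were lower and 1 higher, and 3 averaged under 1 CPM.

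The remaining lists differed in direction, again beside 16.1% of all genes tested called lower and 16.8% higher. For 10 long-term stem cell markers, led by Hlf, the sums were 241 to 249 CPM in Mc5r-/- and 142 to 178 CPM in wild type, and 9 rose. Hlf itself did not pass (edgeR adjusted p = 0.100), with 48.2, 79.2 and 50.4 CPM in wild-type libraries. For 10 B and plasma cell markers, led by Jchain and Mzb1 and with Irf4 among them, they were 2951 to 5930 CPM in Mc5r-/- and 1933 to 1976 CPM in wild type, with 7 higher and 2 lower. For 8 erythroid markers, led by Hba-a1 and Hbb-bt, they were 169.1 to 169.8 CPM in Mc5r-/- and 26.4 to 27.1 CPM in wild type, and 7 rose. The list of 8 dendritic cell markers was led by Flt3, which is also on the list of LSK genes, and Cd74. Its sums were 824 to 848 CPM in Mc5r-/- and 606 to 642 CPM in wild type. Of the 6 tested, 2 were higher and 4 lower, with a median log2 fold change of -0.34. On this list 3 genes averaged under 1 CPM. The list of 9 T and NK cell markers was led by Nkg7 and Lck. Its sums were 257 to 259 CPM in Mc5r-/- and 302 to 307 CPM in wild type. Of these markers, 3 were higher and 1 lower, and 5 averaged under 1 CPM. The list of 6 genes that define LSK cells was led by Cd34 and Flt3. Its sums were 1807 to 1918 CPM in Mc5r-/- and 1544 to 1607 CPM in wild type, and 4 of the genes rose. No marker on these lists was at 0 in all libraries.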

How the data were processed

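Poly-A RNA of LSK cells was sequenced as paired-end stranded libraries, per the labels' protocols. The authors deposited 1 table of 55487 genes with whole-number counts per gene, not normalized, and FPKM, per the file headers. In 10752 genes, the deposited FPKM followed the counts and count totals within a relative 0.001 in 100% of cases. CASAVA 1.8, HISAT2, StringTie, edgeR and GRCm38 are named without roles, per the submitters' processing notes, so the counting program and its use of strand are not given in the sources used here. Strands and transcript numbers are from GENCODE mouse release 21, which holds 99.4% of the IDs.

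The test on the counts was that of edgeR 4.0.16 under R 4.3.3 (filterByExpr with a minimum count of 10 and total of 15, TMM, robust quasi-likelihood F-test, Benjamini-Hochberg over 15257 genes). CPM scale counts by the total of all gene counts in a library; fold changes and their SE come from the fit. Replicates were checked for duplicates within each genotype. No pair of libraries of the same genotype agreed within sampling noise (median chi-square of 0.674 to 0.720 per gene, where 0.455 is due to chance). The check cannot tell whether replicates came from separate mice. Equal replicate numbers did not correlate (0.00255, -0.0408 and -0.0240), so no block was used. Tested on simulated data for this comparison (15201 genes), the fit recovered 58% of 100 genes changed 1.5-fold and 81% of 100 changed 2-fold. Smaller changes, as in several of the 10 factors, were not simulated.

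The 10 factors and the lists were chosen with earlier results of these data known. The rule for other named genes took, per list, up to 5 called genes of smallest p and 2 uncalled ones of highest CPM, and 2 markers of highest CPM per cell type; 1 gene under this rule is not reported here. Alternatives used limma 3.58.1 and DESeq2 1.42.0, other scalings and filters, no immunoglobulin genes, a replicate block, each library left out and an adjusted p under 0.01.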

Additional observations from a re-analysis of the deposited data

How the results depend on the processing

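Across 160 values of the 10 factors under the alternatives, 154 kept their direction and their side of the threshold. Between 6 and 8 factors were called lower and 0 higher under every alternative run. Irf8 was gained without wild-type replicate 1, and Cebpa was lost at an adjusted p under 0.01. Id2 turned sign under total count scaling (-0.023) and when single libraries were left out (-0.047 to 0.070), never passing. Over all genes, an adjusted p under 0.01 gave 1552 higher and 1444 lower, against 2567 and 2456 as reported; DESeq2 gave 1685 higher, and 1736 lower. Of the upstream signal genes, 2 were called higher at an adjusted p under 0.01, and 3 to 5 with single libraries left out. The replicate block called 2254 genes higher and 2148 lower and the same number of factors lower, 7. The scalings moved the median log2 fold change of all genes by less than 0.1. In 16 of 20 combinations of factor and genotype the counts varied by less than 2 times their mean, near counting noise.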
